A study of Drosophila melanogaster with 6 samples.

Results

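The miRNAs of mei-p26 ovaries were compared directly with those of wh7 ovaries, the germline mutants of a small RNA sequencing study of *Drosophila melanogaster*. In mei-p26 flies the gene mei-P26 was mutated, and in wh7 flies the gene wuho. Both stood in a w1118 strain background, and their ovaries were taken from 7-day-old adults reared at one temperature. The strain w1118 itself was the control of the study and is used here for the common estimate of spread and as a level to read beside the mutants. The comparison holds 4 of the 6 libraries, 2 of mei-p26 and 2 of wh7, with 2 of w1118 beside them, and was chosen by its labels alone. All 474 rows of the count table belong to it, 1 row for each mature miRNA and precursor, and 275 of them had a count in at least 1 mutant library. The labels give neither the kind of mutation, the number of flies in a library, nor whether the 2 libraries of a genotype stem from different animals. The p-values thus rest on a spread between libraries that may be technical.

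A miRNA is cut from a hairpin precursor into a duplex, and 1 strand, from the 5p or the 3p arm, is mostly loaded into an Argonaute protein, where the bases of its seed choose the messenger RNAs to be repressed. Mei-P26 is a TRIM-NHL protein that binds Argonaute and restrains the growth and division of differentiating germ cells, and ovaries without it accumulate undifferentiated germ cells. Wuho is a WD40 repeat protein needed for germline development in both sexes. An ovary holds germ cells, the follicle cells that wrap each egg chamber, and a muscular sheath. Because bulk tissue was sequenced, fewer cells of a type and less RNA per cell cannot be told apart in any value given here.

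The libraries held 229276 and 249262 counts in mei-p26, 149520 and 228031 in wh7, and 152848 and 144175 in w1118. A count of 0 in 1 library allows up to 3 counts, between 12.04 and 20.8 counts per 1000000 counts of the library (CPM), and such floors and the counting intervals below cover counting error only. Levels are CPM scaled by the trimmed mean of M-values (TMM), given for replicate 1 and then replicate 2. Fold changes are mei-p26 over wh7 on the log2 scale ± SE, so that a positive value means higher in mei-p26. On log2 CPM, Pearson's r across miRNAs, which are not independent replicates, was 0.979 between the mei-p26 libraries and 0.991 between the wh7 libraries, against 0.823 to 0.851 between a library of one mutant and a library of the other. The libraries of a genotype differed by more than sampling noise, with a chi-square per degree of freedom of 54.3 in mei-p26 and 10.6 in wh7, and were kept as separate replicates. Neither mutation could be checked, since the messenger RNAs of mei-P26 and wuho are not measured in a miRNA library. miRNAs of ovarian follicle cells were abundant in every library, with a sum over the list of 227960.0 and 183530.0 CPM in the mei-p26 libraries, against 372340.0 and 345840.0 CPM in the wh7 libraries and 424500.0 and 361650.0 CPM in w1118. Among markers of other tissues, miR-124, the defining miRNA of the nervous system, had 0 counts in all libraries. The summed nervous system markers were at 28.6 and 10.4 CPM in the mei-p26 libraries, against 54.6 and 22.5 CPM in the wh7 libraries and 7.46 and 14.3 CPM in w1118. The defining muscle marker miR-1-3p was at 22522 and 27334 CPM in the mei-p26 libraries, against 22981 and 23998 CPM in the wh7 libraries and 16816 and 10878 CPM in w1118.

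The mutants differed mainly in several genomic groups of miRNAs, and among the most abundant miRNAs in miR-318 and miR-994. Higher in mei-p26 were arms of miR-991, miR-992, miR-2498, miR-310, miR-311 and miR-312, which are neighbours in the genome, and the testis-enriched neighbours from miR-982 to miR-984 with miR-303. Lower in mei-p26 were the early embryonic miR-309 cluster, miR-281, a marker of gut and Malpighian tubule, the follicle cell miRNAs miR-318 and miR-994, the neighbours miR-314 and miR-956, the mirtron miR-1012, and miR-31b. Of 150 rows tested, 41 passed at an adjusted p under 0.05 (27.3%; edgeR quasi-likelihood test, Benjamini-Hochberg over all rows), 19 higher (12.7%) and 22 lower (14.7%) in mei-p26. They stand for 37 mature miRNAs, 18 higher and 19 lower, since miR-6-3p has 3 rows and miR-281-3p and miR-983-5p have 2 each with nearly the same counts. Of the 41 changes, 37 were larger than 2-fold and 24 larger than 8-fold. None of the 41 had libraries that overlapped between the mutants, but 92 of the 150 tested rows (61.3%) did not overlap either, so separation of 2 libraries from 2 says little alone. The median log2 fold change of all 150 rows was 0.13. It was 0.32 with scaling by total count and -0.03 with upper-quartile scaling, and changes near these sizes are within what the scaling sets.

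**Figure D1:**
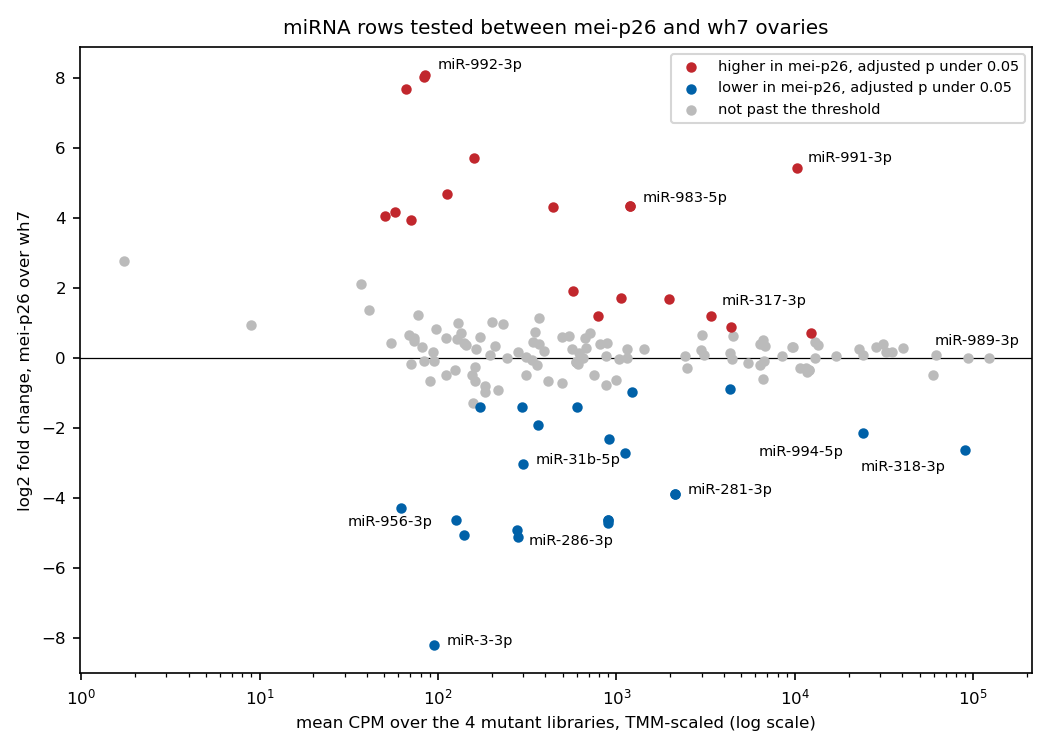
Each point is 1 of the 150 miRNA rows tested. The x axis gives its mean TMM-scaled CPM over the 4 mutant libraries on a log scale, and the y axis its log2 fold change, mei-p26 over wh7. The 19 rows higher (red) and 22 rows lower (blue) in mei-p26 reach large changes mostly at low and middle levels, while miR-318-3p, miR-994-5p and miR-991-3p stand out at high levels.

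Changes were found at every level of abundance, with 41 of 150 rows (27.3%) passing over all levels. Among rows under 100 CPM, on the mean of the mutant libraries, 8 of 24 passed (6 higher and 2 lower in mei-p26). Between 100 and 1000 CPM it was 18 of 69 rows (5 higher, 13 lower), and between 1000 and 10000 CPM 11 of 33 (6 higher, 5 lower). Above 10000 CPM, 4 of 24 rows passed. These were miR-991-3p and miR-31a-5p, higher in mei-p26, and miR-318-3p and miR-994-5p, lower in mei-p26. The median size of the called changes was 5.996 on the log2 scale in the lowest class and 4.47 between 100 and 1000 CPM. It was 1.70 in the class from 1000 to 10000 CPM and 2.40 above 10000 CPM. Small changes of scarce miRNAs are not detectable at this depth. A row under 100 CPM can enter the test through 1 mutant alone, as miR-992-3p did. Some rows between 100 and 1000 CPM, such as miR-286-3p, entered in this way too. The share and size of the calls in both classes are therefore partly set by the filter.

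**Figure D2:**
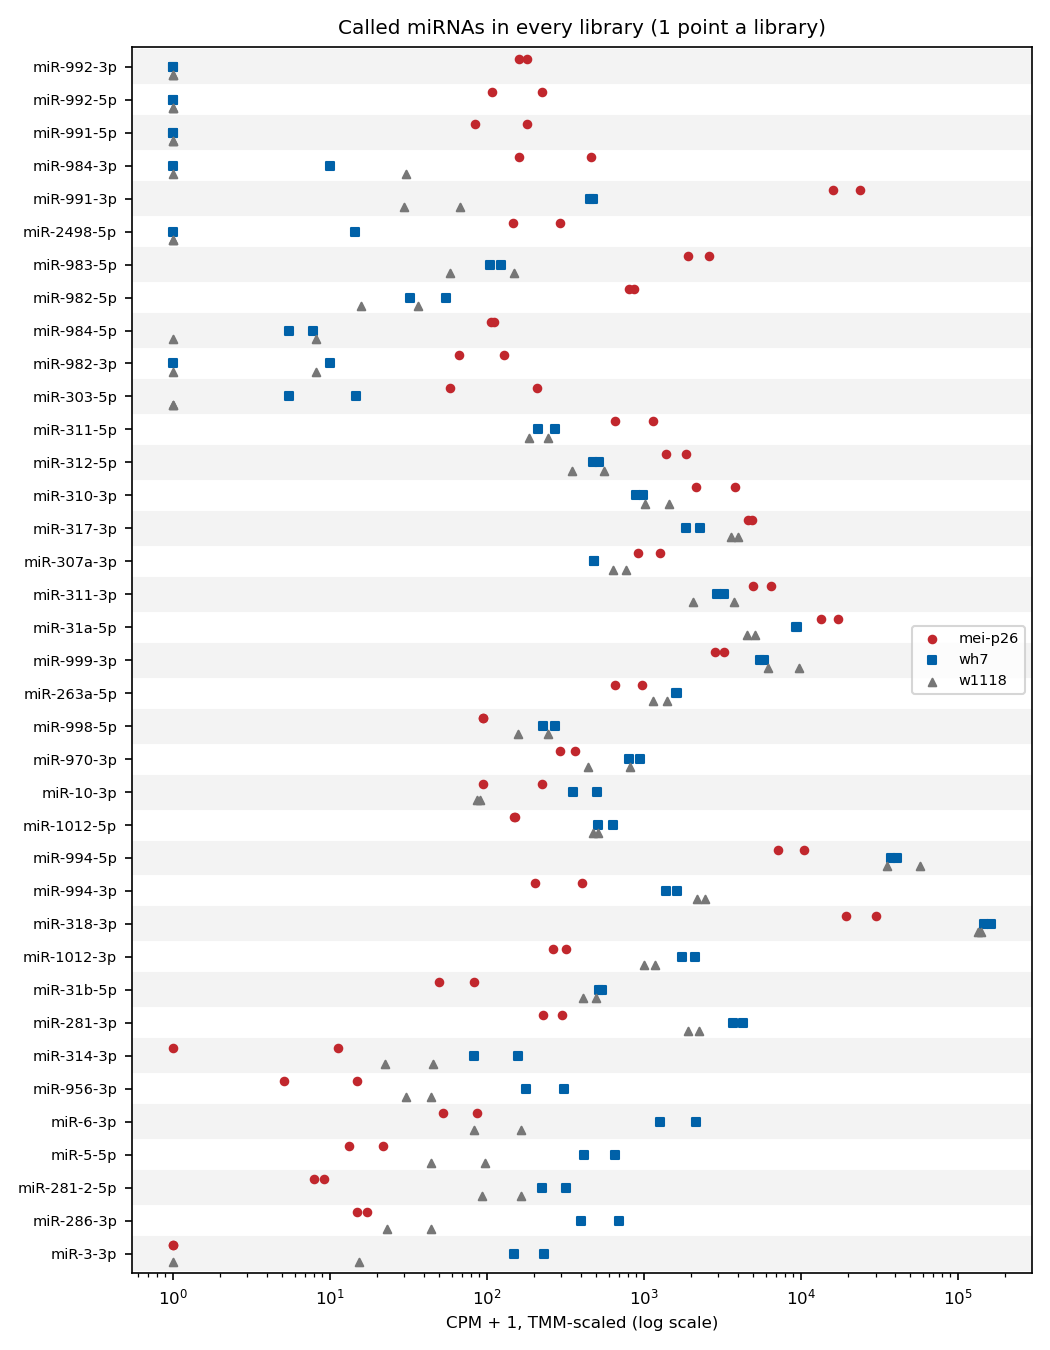
All 37 mature miRNAs that passed between the mutants, ordered from the largest rise to the largest fall in mei-p26, with 1 point for each library on a log axis of TMM-scaled CPM + 1. Within each miRNA the mei-p26 libraries (red circles) lie apart from the wh7 libraries (blue squares), and w1118 (grey triangles) lies nearer to wh7 in most of the rises.

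Of the miR-310s and their neighbours, 9 of 11 tested arms were higher in mei-p26. miR-310 to miR-313 arose recently in the fruit fly lineage and act on Hedgehog signalling in the ovary, and miR-991, miR-992 and miR-2498 are encoded beside them. miR-991-3p was at 23966 and 16142 CPM in the mei-p26 libraries, against 457 and 477 CPM in the wh7 libraries and 67.2 and 28.7 CPM in w1118. Both mei-p26 libraries lay more than 10 times above every other library. Its log2 fold change was 5.42 ± 0.32 (edgeR adjusted p = 4.51e-11). The other arm, miR-991-5p, had 44 and 24 counts in the mei-p26 libraries, against 0 and 0 counts in the wh7 libraries and 0 and 0 in w1118. It was therefore seen in mei-p26 alone at this depth and was at least 15.7-fold higher there, against a floor of 3 counts over the wh7 libraries. miR-992-3p had 44 and 46 counts in the mei-p26 libraries, against 0 and 0 counts in the wh7 libraries and 0 and 0 in w1118, a rise of at least 20.8-fold. miR-992-5p had 55 and 31 counts in mei-p26 and 0 in every other library, at least 19.8-fold. All arms of miR-991 and miR-992 thus rose, although with DESeq2 the 5p arms of both were not called (adjusted p = 0.344 and 0.326). With 1 mutant library left out, these bounds ran from 6.24-fold for miR-991-5p without wh7 replicate 2 to 27.7-fold for miR-992-5p without mei-p26 replicate 2. miR-2498-5p had 36 and 84 counts in the mei-p26 libraries, against 0 and 3 counts in the wh7 libraries and 0 and 0 in w1118, with a ratio of mei-p26 to wh7 of 27.7 (95% counting interval 9.25 to 136). All 3 of its wh7 counts came from replicate 2. The ratio was 18.1 (95% counting interval 5.72 to 91.9) without mei-p26 replicate 2 and 16.7 (95% counting interval 5.57 to 82.0) without wh7 replicate 1, and without wh7 replicate 2 the rise was at least 11.01-fold.

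The miR-310s proper changed by less. miR-310-3p was at 3810.2 and 2156 CPM in the mei-p26 libraries, against 894 and 990.0 CPM in the wh7 libraries and 1023 and 1455 CPM in w1118 (log2 fold change of 1.66 ± 0.32, adjusted p = 0.000281, edgeR). miR-311-5p was at 1154 and 655 CPM in the mei-p26 libraries, against 273 and 211 CPM in the wh7 libraries and 246 and 186 CPM in w1118 (log2 fold change of 1.91 ± 0.40, adjusted p = 0.000567, edgeR). miR-312-5p was at 1858 and 1389.9 CPM in the mei-p26 libraries, against 477 and 517 CPM in the wh7 libraries and 351 and 559 CPM in w1118 (log2 fold change of 1.70 ± 0.34, adjusted p = 0.000351, edgeR). In each of these arms both mei-p26 libraries were above all wh7 and w1118 libraries. The more abundant arm miR-311-3p was at 6470.4 and 4953 CPM in the mei-p26 libraries, against 3247 and 2952 CPM in the wh7 libraries, a smaller rise (log2 fold change of 0.88 ± 0.29, adjusted p = 0.0232, edgeR). It was not called with upper-quartile scaling (adjusted p = 0.0887), nor without mei-p26 replicate 1 (0.0978), wh7 replicate 1 (0.247) or wh7 replicate 2 (0.240). Of the 14 rows of the group, 11 were tested and 9 rose, with a median log2 fold change of 1.91 against 0.13 over all rows. The other two tested arms, named because they complete the count, were miR-312-3p (log2 fold change of 0.63 ± 0.26, adjusted p = 0.0813, edgeR) and miR-313-3p (log2 fold change of 1.14 ± 0.43, adjusted p = 0.0539, edgeR). Both were called without mei-p26 replicate 2, so that all 11 passed in that case, and 7 of 11 passed with DESeq2. Added up, the group was at 45481 and 30644 CPM in the mei-p26 libraries, against 9065 and 9067 CPM in the wh7 libraries and 7367 and 9968 CPM in w1118. Rows enter the test through their high group, so that scarce arms such as those of miR-992 could hardly be tested without differing.

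The second group of rises lies on the X chromosome and holds the testis-enriched miR-303 and miR-982 to miR-984. miR-983-5p was at 1915 and 2610.0 CPM in the mei-p26 libraries, against 123 and 103 CPM in the wh7 libraries and 149 and 57.3 CPM in w1118 (log2 fold change of 4.33 ± 0.42, adjusted p = 4.39e-08, edgeR). Its wh7 levels lay within the range of w1118. miR-982-5p was at 802 and 867 CPM in the mei-p26 libraries, against 54.6 and 31.5 CPM in the wh7 libraries and 14.9 and 35.8 CPM in w1118 (log2 fold change of 4.31 ± 0.50, adjusted p = 5.91e-07, edgeR). Both mei-p26 libraries stood more than 10 times above any other library for this arm. miR-984-3p had 39 and 134 counts in the mei-p26 libraries, against 0 and 2 counts in the wh7 libraries and 4 and 0 in w1118, a ratio of 59.9 (95% counting interval 16.3 to 498). miR-984-5p had 26 and 32 counts in the mei-p26 libraries, against 1 and 1 counts in the wh7 libraries and 0 and 1 in w1118, a ratio of 20.1 (95% counting interval 5.31 to 169.7). The mei-p26 libraries differed more in miR-984-3p than in miR-984-5p. The ratio of miR-984-3p was 29.4 (95% counting interval 7.62 to 252) without mei-p26 replicate 2, 36.1 (95% counting interval 9.84 to 300.3) without wh7 replicate 1 and 85.7 (95% counting interval 23.2 to 714) without mei-p26 replicate 1, and without wh7 replicate 2 the rise was at least 15.9-fold. miR-982-3p had 16 and 37 counts in the mei-p26 libraries, against 0 and 2 counts in the wh7 libraries and 0 and 1 in w1118, a ratio of 18.3 (95% counting interval 4.83 to 155), and its call was lost without wh7 replicate 1 (adjusted p = 0.104). The ratio was 11.1 (95% counting interval 2.91 to 93.6) in that case and 12.1 (95% counting interval 2.84 to 108) without mei-p26 replicate 2, and without wh7 replicate 2 the rise was at least 4.86-fold. miR-303-5p had 14 and 60 counts in the mei-p26 libraries, against 2 and 1 counts in the wh7 libraries and 0 and 0 in w1118, a ratio of 17.1 (95% counting interval 5.62 to 84.7), and was too scarce to be tested without mei-p26 replicate 2, where the ratio was 7.04 (95% counting interval 1.97 to 38.2). That ratio was 10.2 (95% counting interval 2.72 to 85.6) without wh7 replicate 2 and 30.9 (95% counting interval 5.37 to 1235) without wh7 replicate 1. All these arms were scarce in wh7 and in w1118 alike.

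Of the 10 rows of this group, 8 were tested and 7 rose, with a median log2 fold change of 4.24 against 0.13 over all rows. The eighth, miR-303-3p, was at 65.5 and 55.5 CPM in the mei-p26 libraries, against 13.6 and 13.5 CPM in the wh7 libraries and 0 and 0 CPM in w1118 and just missed the threshold (log2 fold change of 2.10 ± 0.78, adjusted p = 0.0503, edgeR). It passed with total-count scaling (adjusted p = 0.0235), limma-voom (0.0460) and without mei-p26 replicate 2 (0.0340). Both miR-983 precursors carry the same counts, so that 7 rows stand for 6 mature miRNAs. Apart from miR-983-5p, the tested arms were high enough to be tested only through mei-p26. That 7 of 8 rose, and the median of 4.24, are therefore partly set by the filter. In sum the group was at 3221 and 4509 CPM in the mei-p26 libraries, against 218 and 175 CPM in the wh7 libraries and 202 and 107 CPM in w1118. Other testis-enriched miRNAs gave no calls, and the difference between these lists was not tested. In the cluster of miR-959 to miR-964, 0 of 7 tested rows passed by any of edgeR, DESeq2 and limma-voom, 0 of them had an unadjusted p under 0.05, and their median log2 fold change was 0.56. Their sum was 1035 and 1428 CPM in the mei-p26 libraries, against 962 and 1089 CPM in the wh7 libraries and 1097 and 824 CPM in w1118, and the ranges of the mutants overlapped. In the cluster of miR-972 to miR-979, both tested arms belonged to miR-978, and 0 of 2 passed by any of these tools, with 0 at an unadjusted p under 0.05 and a median log2 fold change of 1.86. The other 14 rows of that cluster were too scarce to be tested. miR-978-3p had 2 and 4 counts in the mei-p26 libraries, against 2 and 0 counts in the wh7 libraries and 30 and 26 in w1118. miR-978-5p had 0 and 2 counts in the mei-p26 libraries, against 0 and 0 in the wh7 libraries and 9 and 8 in w1118. Both arms were tested through w1118 and were too scarce in the mutants to decide on a change. The cluster held 6 and 23 counts in the mei-p26 libraries, against 4 and 1 in the wh7 libraries and 43 and 38 in w1118. In CPM, mei-p26 replicate 1 (24.6) lay below wh7 replicate 1 (27.3).

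Beyond these groups, 3 more mature miRNAs were higher in mei-p26. miR-317-3p, encoded with miR-277 and miR-34, was at 4874 and 4599.5 CPM in the mei-p26 libraries, against 2271 and 1867 CPM in the wh7 libraries and 4008 and 3583 CPM in w1118 (log2 fold change of 1.20 ± 0.25, adjusted p = 0.000641, edgeR). Here w1118 lay between the mutants, and only wh7 passed against it. The value against w1118 was 0.32 ± 0.25 (adjusted p = 0.334) in mei-p26 and -0.88 ± 0.25 (adjusted p = 0.0207) in wh7. The call between the mutants was lost without wh7 replicate 2 (adjusted p = 0.0760). Of the 6 arms of this cluster, which is tied to ageing and to amino acid metabolism, miR-317-3p alone passed. miR-34-5p was at 7301 and 8284 CPM in the mei-p26 libraries, against 5894 and 5143 CPM in the wh7 libraries (log2 fold change of 0.50 ± 0.24, adjusted p = 0.153) and miR-277-3p at 246 and 392 CPM in the mei-p26 libraries, against 532 and 481 CPM in the wh7 libraries (log2 fold change of -0.66 ± 0.38, adjusted p = 0.237).

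miR-307a-3p was at 921 and 1279 CPM in the mei-p26 libraries, against 484 and 481 CPM in the wh7 libraries and 642 and 767 CPM in w1118 (log2 fold change of 1.19 ± 0.33, adjusted p = 0.00754, edgeR). The mutants lay on opposite sides of w1118. This call was lost without mei-p26 replicate 2 (adjusted p = 0.0603), wh7 replicate 1 (0.136) or wh7 replicate 2 (0.104).

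The paralogs miR-31a and miR-31b differed between the mutants in opposite directions. miR-31a-5p was at 13509.8 and 17268 CPM in the mei-p26 libraries, against 9468 and 9288 CPM in the wh7 libraries and 5158 and 4572 CPM in w1118 (log2 fold change of 0.71 ± 0.23, adjusted p = 0.0232, edgeR). Both mutants were above w1118, and mei-p26 was the higher. miR-31b-5p was at 81.9 and 48.5 CPM in the mei-p26 libraries, against 546 and 522 CPM in the wh7 libraries and 500.1 and 408 CPM in w1118 (log2 fold change of -3.03 ± 0.44, adjusted p = 1.13e-05, edgeR). In this paralog wh7 was close to w1118 and mei-p26 was several times lower. The call of miR-31a-5p was kept under 11 of 18 alternatives. It was lost without mei-p26 replicate 2 (adjusted p = 0.123), wh7 replicate 1 (0.377), wh7 replicate 2 (0.306) or w1118 replicate 1 (0.0671), and with upper-quartile scaling, no filter or only the mutant libraries (0.143, 0.0764 and 0.0930). The fall of miR-31b-5p passed under all 18. How reads that fit both paralogs were counted is not stated, and miR-31a-5p was more than 10 times as abundant as miR-31b-5p in every mutant library.

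All 6 tested rows of the miR-309 cluster fell in mei-p26. Its miRNAs are transcribed from the zygotic genome of the early embryo and help to clear maternal messenger RNAs. miR-6-3p, which shares its seed family with miR-2 and miR-11, was at 85.9 and 52.0 CPM in the mei-p26 libraries, against 2169 and 1278 CPM in the wh7 libraries and 82.1 and 165 CPM in w1118 (log2 fold change of -4.64 ± 0.45, adjusted p = 4.39e-08 on its first row, edgeR). miR-286-3p had 4 and 4 counts in the mei-p26 libraries, against 102 and 89 counts in the wh7 libraries and 3 and 6 in w1118 (log2 fold change of -5.12 ± 0.60, adjusted p = 6.15e-07, edgeR). miR-5-5p had 3 and 6 counts in the mei-p26 libraries, against 96 and 92 counts in the wh7 libraries and 13 and 6 in w1118 (log2 fold change of -4.93 ± 0.60, adjusted p = 9.83e-07, edgeR). For these miRNAs both wh7 libraries stood above all others. miR-3-3p had 0 and 0 counts in the mei-p26 libraries, against 34 and 33 counts in the wh7 libraries and 0 and 2 in w1118, and was at least 32.3-fold lower in mei-p26 against a floor of 3 counts over its libraries. This bound was 14.8-fold without mei-p26 replicate 2 and 17.5-fold without mei-p26 replicate 1. Of the 16 rows of the cluster, 6 were tested and 6 fell, which hold 4 mature miRNAs, since miR-6-3p is counted at 3 copies whose reads cannot be told apart; the median log2 fold change was -4.83, against 0.13 over all rows. miR-286-3p, miR-5-5p and miR-3-3p were high enough to be tested only through wh7, so that 6 of 6 and this median are partly set by the filter. Each of the 6 calls passed whichever library was left out. Their sum was 119 and 97.0 CPM in the mei-p26 libraries, against 3969.9 and 2339.9 CPM in the wh7 libraries and 224 and 272 CPM in w1118. Against w1118, miR-286-3p changed by -1.09 ± 0.80 (adjusted p = 0.298) in mei-p26 and by 4.03 ± 0.59 (adjusted p = 3.97e-05) in wh7, and miR-5-5p by -2.01 ± 0.70 (adjusted p = 0.0339) in mei-p26 and by 2.92 ± 0.54 (adjusted p = 0.000609) in wh7. These values share the w1118 libraries.

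miR-281, a marker of gut and Malpighian tubule, was lower in mei-p26 in all 3 tested rows. miR-281-3p was at 229 and 302 CPM in the mei-p26 libraries, against 3683 and 4270.3 CPM in the wh7 libraries and 1911 and 2250.1 CPM in w1118 (log2 fold change of -3.90 ± 0.31, adjusted p = 3.81e-09, edgeR). The groups did not overlap, with w1118 between the mutants. The arm miR-281-2-5p had 2 and 2 counts in the mei-p26 libraries, against 33 and 71 counts in the wh7 libraries and 22 and 13 in w1118 (log2 fold change of -5.08 ± 0.68, adjusted p = 3.57e-06, edgeR). Both calls passed under every alternative in which they had a value. Against w1118 miR-281-3p changed by -2.96 ± 0.30 (adjusted p = 1.59e-07) in mei-p26 and by 0.93 ± 0.28 (adjusted p = 0.0218) in wh7, in opposite directions. The summed marker was at 237 and 308 CPM in the mei-p26 libraries, against 3936 and 4671 CPM in the wh7 libraries and 2112 and 2350.4 CPM in w1118, so a marker of another tissue moved with the comparison of the mutants, and its part in the other falls was not tested.

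The neighbours miR-314 and miR-956 fell together. Both tested arms were high enough to be tested only through wh7, so that their shared fall is partly set by the filter. miR-956-3p had 1 and 4 counts in the mei-p26 libraries, against 26 and 69 counts in the wh7 libraries and 4 and 6 in w1118 (log2 fold change of -4.64 ± 0.69, adjusted p = 1.37e-05, edgeR), and its log2 fold change was -5.65 without mei-p26 replicate 2. miR-314-3p had 0 and 3 counts in the mei-p26 libraries, against 12 and 35 counts in the wh7 libraries and 6 and 3 in w1118, and was higher in wh7 by a ratio of 22.6 (95% counting interval 7.29 to 114). That ratio was 12.2 (95% counting interval 3.94 to 61.5) without mei-p26 replicate 1 and 14.5 (95% counting interval 3.92 to 80.3) without wh7 replicate 2, and without mei-p26 replicate 2 the fall was at least 10.4-fold. Both mei-p26 libraries were below every w1118 library and both wh7 libraries above, and both calls passed whichever library was left out.

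Follicle cell miRNAs split. miR-318, which acts in follicle cells late in egg chamber development, gave the largest difference in CPM of any row. miR-318-3p was at 30437 and 19466 CPM in the mei-p26 libraries, against 163341 and 146915 CPM in the wh7 libraries and 134948 and 140575 CPM in w1118 (log2 fold change of -2.64 ± 0.26, adjusted p = 4.39e-08, edgeR). It made up 3.24% and 2.25% of all counts in the mei-p26 libraries, 16.02% and 14.3% in the wh7 libraries and 11.8% and 13.6% in w1118. miR-994-5p comes from a precursor next to that of miR-318 and was at 10469 and 7192 CPM in the mei-p26 libraries, against 41255 and 37754 CPM in the wh7 libraries and 57629 and 35500.3 CPM in w1118 (log2 fold change of -2.16 ± 0.27, adjusted p = 1.45e-06, edgeR). miR-994-3p was at 405 and 201 CPM in the mei-p26 libraries, against 1637 and 1395 CPM in the wh7 libraries and 2448 and 2193 CPM in w1118 (log2 fold change of -2.33 ± 0.34, adjusted p = 1.22e-05, edgeR), and its log2 fold change was -2.93 without mei-p26 replicate 1. In all 3 arms mei-p26 lay below wh7 and w1118, and wh7 near w1118. The rest of the list did not follow. miR-989-3p, which acts in border cell migration, was at 135822 and 108353 CPM in the mei-p26 libraries, against 125647 and 118264 CPM in the wh7 libraries and 184628 and 138039 CPM in w1118 (log2 fold change of 0.00 ± 0.24, adjusted p = 0.996). It was the most abundant row of the mutants, and the mei-p26 libraries lay on either side of the wh7 libraries. miR-279-3p, which limits JAK/STAT signalling in border cells, was at 36396 and 34352 CPM in the mei-p26 libraries, against 26105 and 27422 CPM in the wh7 libraries (log2 fold change of 0.40 ± 0.22, adjusted p = 0.205), and passed with scaling by total count (adjusted p = 0.0354). Of 10 rows in the list 8 were tested, 3 fell and 0 rose, with a median log2 fold change of -0.18, which was 0.01 with total-count scaling, so the list as a whole had no stable direction.

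Of the mirtrons, short introns that are spliced and debranched into miRNA precursors without Drosha, both arms of miR-1012 fell. miR-1012-3p was at 319 and 263 CPM in the mei-p26 libraries, against 2121 and 1759 CPM in the wh7 libraries and 1008 and 1175 CPM in w1118 (log2 fold change of -2.73 ± 0.32, adjusted p = 6.15e-07, edgeR). miR-1012-5p was at 151 and 149 CPM in the mei-p26 libraries, against 641 and 508 CPM in the wh7 libraries and 515 and 473 CPM in w1118 (log2 fold change of -1.93 ± 0.39, adjusted p = 0.000389, edgeR). All mei-p26 values were below those of wh7 and of w1118, and both calls passed under all 18 alternatives. The other five tested mirtron arms, of 23 rows, did not pass, and the median over the 7 tested was -0.07, a sign that total-count scaling turned.

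A further 5 mature miRNAs were lower in mei-p26, each by a smaller amount. miR-970-3p was at 291 and 364 CPM in the mei-p26 libraries, against 941 and 810.0 CPM in the wh7 libraries and 440.4 and 817 CPM in w1118 (log2 fold change of -1.41 ± 0.37, adjusted p = 0.00445, edgeR), and this call passed whichever library was left out. miR-999-3p was at 3262 and 2856 CPM in the mei-p26 libraries, against 5805 and 5481 CPM in the wh7 libraries and 9733 and 6227 CPM in w1118 (log2 fold change of -0.88 ± 0.26, adjusted p = 0.0107, edgeR). miR-263a-5p, which protects sensory bristle cells from apoptosis, was at 982.2 and 655 CPM in the mei-p26 libraries, against 1603 and 1624 CPM in the wh7 libraries and 1418 and 1147 CPM in w1118 (log2 fold change of -0.98 ± 0.31, adjusted p = 0.0181, edgeR). For all 3 the mei-p26 libraries were below those of the other genotypes. miR-998-5p, which comes with miR-11 from an intron of E2f1, was at 94.1 and 93.6 CPM in the mei-p26 libraries, against 273 and 229 CPM in the wh7 libraries and 157 and 244 CPM in w1118 (log2 fold change of -1.41 ± 0.47, adjusted p = 0.0270, edgeR). miR-10-3p, from the Hox complex, was at 94.1 and 225 CPM in the mei-p26 libraries, against 355 and 504 CPM in the wh7 libraries and 89.6 and 85.99 CPM in w1118 (log2 fold change of -1.42 ± 0.47, adjusted p = 0.0254, edgeR). In miR-10-3p both mutants lay above w1118, and only wh7 passed against it. The edgeR values against w1118 were 0.87 ± 0.54 (adjusted p = 0.215) in mei-p26 and 2.29 ± 0.53 (adjusted p = 0.00416) in wh7. The last 4 calls were less firm. miR-999-3p was lost without mei-p26 replicate 2 (adjusted p = 0.168), wh7 replicate 1 (0.134) or wh7 replicate 2 (0.0594). miR-263a-5p was lost without the same libraries (0.177, 0.0949 and 0.0995) and with total-count scaling (0.0571). miR-998-5p was lost in these cases too (0.0814, 0.109 and 0.0799, and 0.0687 with total-count scaling). miR-10-3p was lost without mei-p26 replicate 1 (0.144) or wh7 replicate 2 (0.242) and with total-count scaling (0.0988), and its log2 fold change was -2.14 without mei-p26 replicate 2. The opposite arm miR-10-5p did not pass (log2 fold change of -1.28 ± 0.52, adjusted p = 0.0715).

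Most of the abundant miRNAs were not called. Over all tested rows 41 of 150 passed (27.3%). Of the 15 rows with the highest mean level in the mutants, 2 passed, miR-318-3p and miR-994-5p. The other 13 had log2 fold changes from -0.51 for miR-8-3p to 0.40 for miR-279-3p, SE from 0.22 to 0.27 and adjusted p of at least 0.116. In 8 of the 15, the called rows included, the libraries of the mutants did not overlap, beside 92 of all 150 tested rows (61.3%). miR-8-3p, which acts in insulin and steroid signalling, was at 52328 and 45416 CPM in the mei-p26 libraries, against 65443 and 73473 CPM in the wh7 libraries and 78267 and 63605 CPM in w1118 (log2 fold change of -0.51 ± 0.23, adjusted p = 0.116). The mei-p26 libraries were below all others for this miRNA, and it passed when only the mutant libraries were fitted (adjusted p = 0.0456) and without w1118 replicate 1 (0.0326) or w1118 replicate 2 (0.00946). miR-14-3p, known from ecdysone signalling and cell survival, was at 96512 and 90295 CPM in the mei-p26 libraries, against 96459 and 92417 CPM in the wh7 libraries. The libraries of the mutants interleaved.

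**Figure D3:**
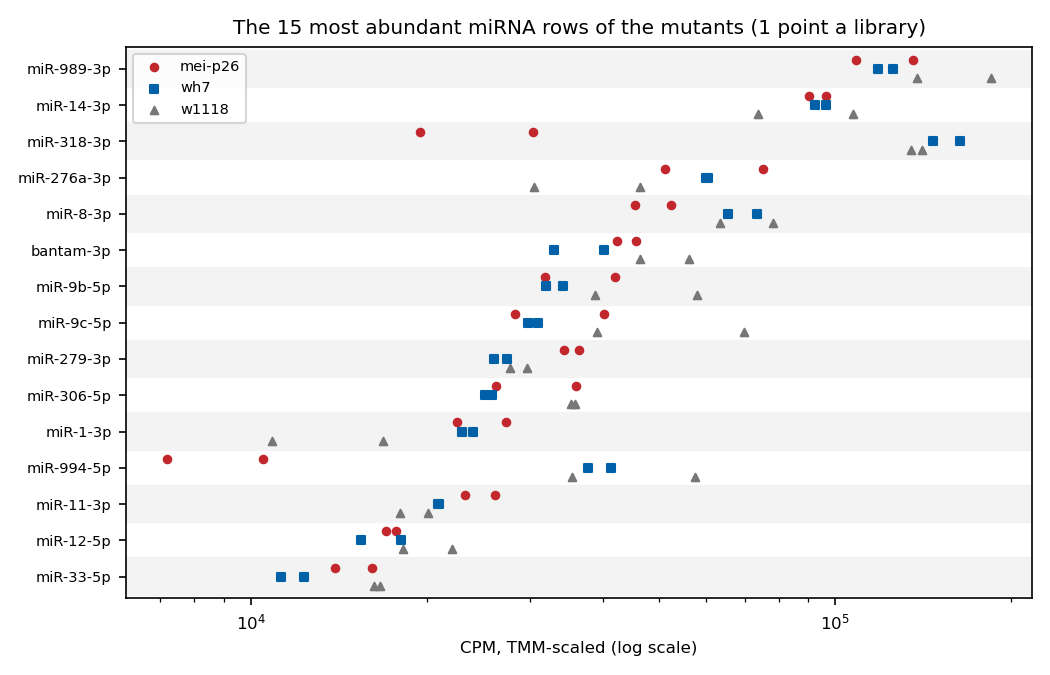
The 15 miRNA rows with the highest mean level in the mutant libraries, ordered by that mean, with 1 point for each library on a log axis of TMM-scaled CPM. Only miR-318-3p and miR-994-5p passed, with both mei-p26 libraries (red circles) far left of the wh7 libraries (blue squares).

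The listed miRNAs that act in germ cells gave no call between the germline mutants when all libraries were fitted. Of the list of bantam, miR-7, miR-184 and miR-278, 7 rows were tested and 0 passed, whether by edgeR, DESeq2 or limma-voom. Of these rows, 0 had an unadjusted p under 0.05. bantam-3p, which promotes growth and the maintenance of germline stem cells, was at 45674 and 42328 CPM in the mei-p26 libraries, against 33049 and 40197 CPM in the wh7 libraries and 56151 and 46342 CPM in w1118 (log2 fold change of 0.26 ± 0.23, adjusted p = 0.442). miR-7-5p, a regulator of stem cell division in the germline, was at 10960.1 and 9164 CPM in the mei-p26 libraries, against 13581 and 13302 CPM in the wh7 libraries and 17607 and 13508 CPM in w1118 (log2 fold change of -0.42 ± 0.23, adjusted p = 0.216), and passed without w1118 replicate 2 (adjusted p = 0.0390). miR-184-3p, needed for female germline development, was at 10710.4 and 10124 CPM in the mei-p26 libraries, against 12196 and 13342 CPM in the wh7 libraries and 18048 and 11645 CPM in w1118 (log2 fold change of -0.29 ± 0.24, adjusted p = 0.432). A p that misses the threshold does not show equal levels, and the smallest change that passed anywhere in the comparison was 0.71 on the log2 scale. In the sum the list was at 70606 and 66379 CPM in the mei-p26 libraries, against 63349 and 70926 CPM in the wh7 libraries and 95225 and 74412 CPM in w1118.

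Of the remaining lists, 7 had no call whether edgeR, DESeq2 or limma-voom was used, with 3 of their 33 tested rows at an unadjusted p under 0.05. Some of these lists gained 1 call under other settings. miR-275 with miR-305 gained 1 lower row with upper-quartile scaling, a mean count of 50 or more, the mutant libraries alone, and without w1118 replicate 1 or w1118 replicate 2. miR-92 gained 1 lower row with the mutant libraries alone and without w1118 replicate 1. miR-12 with miR-283 and miR-304 gained 1 higher row without mei-p26 replicate 1. The lists held 0 of 5 tested rows of the let-7 complex, 0 of 7 of the miR-9 family, 0 of 3 of miR-92, 0 of 4 of miR-276, 0 of 4 of miR-275 with miR-305, 0 of 6 of miR-12 with miR-283 and miR-304, and 0 of 4 of miR-8 with miR-14. The miR-2 family had 3 of 17 rows lower, and these were the copies of miR-6-3p, which also belongs to the miR-309 cluster. Of the Hox complex 1 of 3 tested rows was lower, miR-10-3p. The muscle markers had 0 of 2 tested rows past the threshold with each of these tools and 0 at an unadjusted p under 0.05. Without mei-p26 replicate 1, 1 of the 2 was called higher and their median log2 fold change was 0.91. Without mei-p26 replicate 2 the median was -0.14, against 0.54 with all libraries. The scarcer arm miR-1-5p had 17 and 78 counts in the mei-p26 libraries, against 16 and 15 counts in the wh7 libraries and 3 and 15 in w1118 (log2 fold change of 0.98 ± 0.65, adjusted p = 0.307, edgeR), with replicate 2 of mei-p26 above all others. For miR-1-3p the mutants were not told apart, with an edgeR log2 fold change of 0.09 ± 0.24, adjusted p = 0.850, and a sign that turned with upper-quartile scaling. Of miR-133, the other muscle marker, at most 3 counts were seen in a library.

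**Figure D4:**
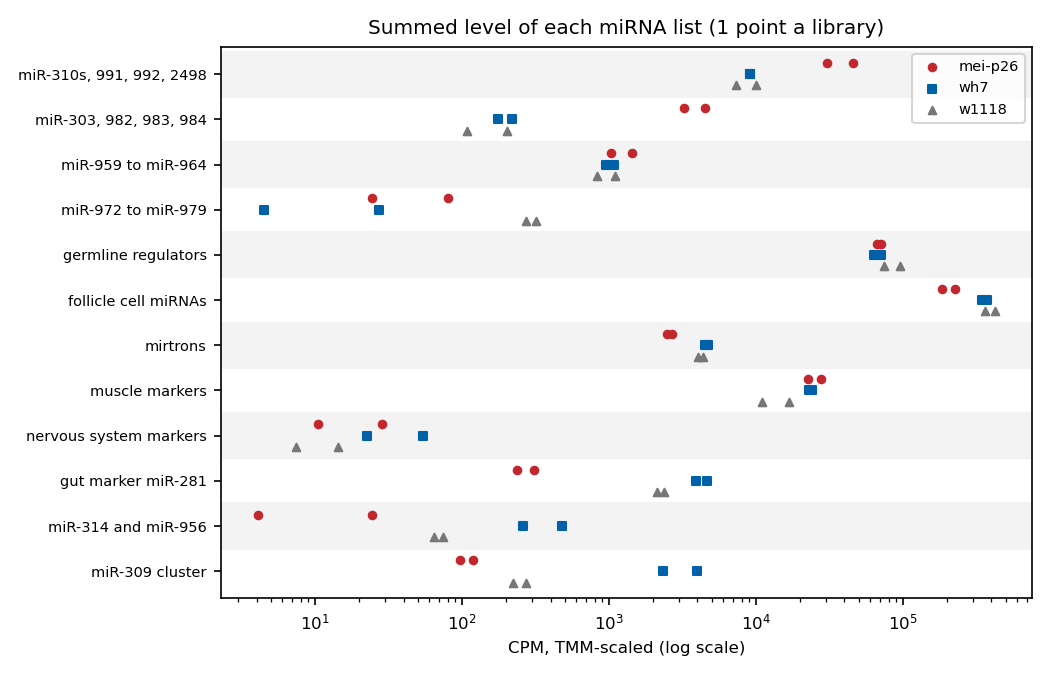
Summed TMM-scaled CPM of each of 12 miRNA lists on a log axis, with 1 point for each library and each mature miRNA counted once. The mei-p26 libraries (red circles) lie right of the wh7 libraries (blue squares) for the miR-310s and the miR-303 group. They lie left of them for follicle cell miRNAs, mirtrons, miR-281, miR-314 with miR-956 and the miR-309 cluster. Among follicle cell miRNAs only arms of miR-318 and miR-994 passed, and among mirtrons only those of miR-1012, so these 2 sums do not show a fall of the whole list. For germline regulators and muscle markers the libraries of the mutants lie together.

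Calls lay mostly among miRNAs with neighbours in the genome. Precursors within 10 kb of each other were joined into groups by their positions in a later genome release, in which 255 of 256 precursors were found. Of 22 such groups with a tested row, 12 held no call, 4 held exactly 1 and 6 held at least 2. The 6 could have held calls in both directions, and 0 of them did. One of these is the pair of miR-281 precursors, whose rows are copies and arms of 1 miRNA. Rows in groups passed in 34 of 91 cases (37.4%), and rows outside in 7 of 59 (11.9%). Copies and arms of a precursor share their source, so that these rows are not independent. The called rows given above as count ratios or bounds all lay in groups, and they could enter the test through 1 mutant only. The share for rows in groups is therefore partly set by the filter. Where an arm of a precursor passed, both of its tested arms were alike in direction too. Of 53 precursors with both arms tested, 8 had both arms past the threshold, all in the same direction. In 7 more, 1 arm was past it, with the other arm of the same sign each time. Among the 38 with neither arm past it, some had arms of opposite sign, miR-277 and miR-988 among them. miR-311, miR-982, miR-984, miR-991 and miR-992 rose in both arms, and miR-281-2, miR-994 and miR-1012 fell in both.

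The balance between the arms of a precursor was tested by itself, since the scaling between libraries does not touch it. Among 50 precursors whose arms both averaged 10 counts or more, the log2 ratio of the 5p over the 3p count differed between the mutants in 0 (0% called; limma, smallest adjusted p = 0.322), with 5 at an unadjusted p under 0.05. The 5 were named by that rule. miR-317 had 1.98% and 2.14% of its counts on the 5p arm in the mei-p26 libraries, against 3.76% and 4.60% in the wh7 libraries. Its 5p arm hardly differed in level between the mutants (log2 fold change of 0.15 ± 0.52, adjusted p = 0.886, edgeR), while its 3p arm was higher in mei-p26. miR-312 had 21.7% and 24.6% on the 5p arm in mei-p26, against 12.2% and 12.4% in wh7. miR-277 had 51.6% and 56.9% in mei-p26, against 39.5% and 32.7% in wh7. The adjusted p was 0.322 for each of these. The ratios of the mutants did not overlap in 25 of the 50 precursors (50%), these among them. miR-998 had 12.2% and 14.2% on the 5p arm in mei-p26 and 23.5% and 21.2% in wh7. miR-1012 had 32.2% and 36.1% in mei-p26 and 23.2% and 22.4% in wh7. No change of arm use was detectable at this number of libraries. miR-992 had 0 counts on both arms in wh7 and miR-991-5p 0 there, so their wh7 ratios rest on the 1 added to each count. miR-984 had at most 2 counts on an arm in wh7. For these precursors the arm use of wh7 could not be measured.

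**Figure D5:**
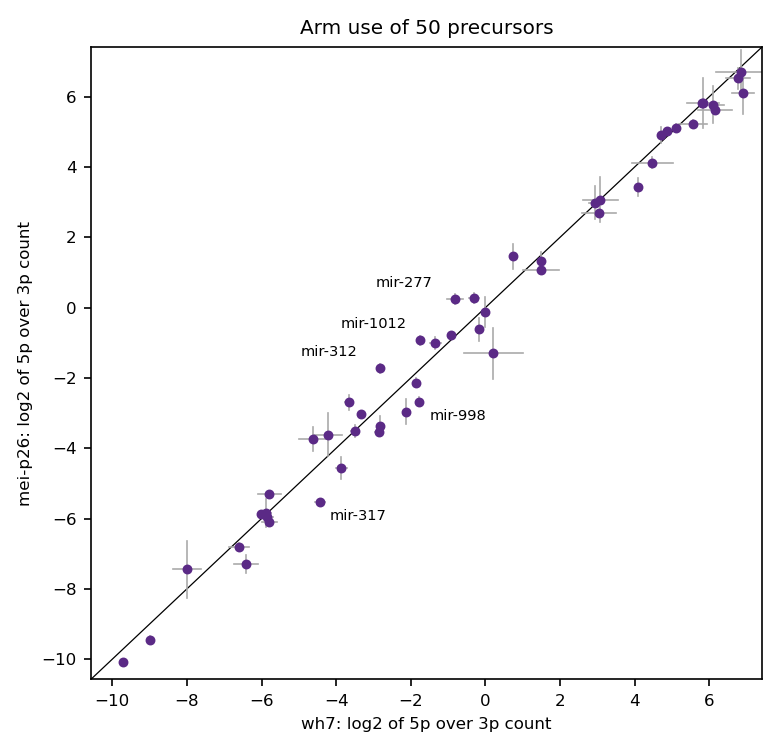
Each point is 1 of 50 precursors, placed by its mean log2 ratio of 5p over 3p counts in wh7 (x axis) and in mei-p26 (y axis), with grey lines joining the values of both libraries and a diagonal of equal ratios. The precursors follow the diagonal over the whole range, and the 5 with the smallest p, named in the plot, lie within about 1 log2 unit of it.

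Set beside w1118, the rows that passed between the mutants fell into several patterns. Of the 19 rows higher in mei-p26, w1118 lay nearer to wh7 in 18 and nearer to mei-p26 in 1, miR-317-3p, on log2 (mean CPM + 1). Of the 22 rows lower in mei-p26, it lay nearer to wh7 in 14 and nearer to mei-p26 in 8. The w1118 mean was between those of the mutants in 4 of the 19 and in 18 of the 22. In 3 more of the 19, both w1118 and wh7 had 0 counts. In the same fit, 51 of 150 rows (34.0%) passed between mei-p26 and w1118 and 23 of 150 (15.3%) between wh7 and w1118; these comparisons share the w1118 libraries. The 18 mature miRNAs higher in mei-p26, each counted once, held 6.44% and 6.19% of all counts in the mei-p26 libraries, against 1.74% and 1.65% in the wh7 libraries and 1.20% and 1.46% in w1118. The 19 mature miRNAs lower in mei-p26, each counted once, held 5.003% and 3.70% in the mei-p26 libraries, against 22.2% and 19.96% in the wh7 libraries and 18.5% and 18.5% in w1118.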

How the data were processed

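miRNA libraries were made from ovaries with the QIAseq miRNA kit, which adds a unique molecular identifier (UMI) at cDNA synthesis, per the labels' protocols. Per the submitters' processing notes, bcl2fastq 2.20, Trimmomatic and the BDGP5 build were used. Not given in the sources used here are the miRNA annotation, the aligner and the program that counted. The 474 rows hold raw read counts, 1 row for each mature miRNA of each precursor, per the file headers. No source says if UMIs were collapsed, and PCR copies may be counted as molecules. The authors' deposited CPM values equalled the count over the library total to within 0.005 and were used only for that check. The authors' deposited p-values compare each mutant with w1118 and were not used.

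Counts of all 6 libraries entered 1 edgeR 4.0.16 quasi-likelihood fit (R 4.3.3, TMM scaling, filterByExpr with a minimum count of 10, 3 residual degrees of freedom), with the contrast mei-p26 minus wh7, Benjamini-Hochberg adjustment over 150 rows and a threshold of 0.05. Each SE was obtained by dividing the log2 fold change by the square root of F, without sign. Count ratios and bounds use the TMM-scaled library sizes of that fit, also with a library left out. Arm ratios were log2 of 5p over 3p counts with a pseudocount of 1, fitted in limma 3.58.1. The fits were tested on simulated data first. Named miRNAs are all that passed, the 15 most abundant in the mutants, up to 4 of each list, and the 5 arm ratios of smallest p; miR-313-3p, miR-303-3p, miR-317-5p and the low counts given at the end were chosen after their values were seen. Members and lists were chosen with earlier results of these data known. The alternatives changed the scaling (RLE, total count, upper quartile, or TMM without the 10 most abundant rows), the filter (none, or a mean count of 50 or more), the tool (DESeq2 1.42.0 or limma-voom) or the libraries and rows used. Tried as well were a replicate block, the mutant libraries alone, 1 row per mature miRNA, a threshold of 0.1 and each library left out. A planned sum over shared seeds was not run. The annotation used for neighbours is Release 6, not BDGP5, so no coordinates are given.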

Additional observations from a re-analysis of the deposited data

How the results depend on the processing

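The count of 41 rows (19 higher, 22 lower in mei-p26) ran from 34 to 55 with 1 library left out, with 15 to 24 higher and 19 to 34 lower; the 34 lower were found without w1118 replicate 1, where 165 rows were tested. Of the 96 rows that averaged 50 counts or more, 26 passed, 11 higher and 15 lower. Under the other alternatives the count was 39 to 51. The replicate numbers of the labels name no shared animal or day, and deviations of same-numbered mei-p26 and wh7 libraries correlated at 0.0895. With the replicate block 41 rows passed, and no call changed. Of 717 values of the 41 calls under 18 alternatives, 685 kept direction and call, 32 lost the call and 0 reversed; 31 calls passed whichever library was left out. The fold changes that changed sign were of miRNAs that did not pass. miR-989-3p was at -0.15 with upper-quartile scaling, -0.014 with no filter, -0.050 at a mean count of 50 or more, -0.0071 with limma-voom, -0.0099 with the replicate block, -0.13 with the mutant libraries alone, and -0.20 to 0.20 with 1 library left out. miR-1-3p was at -0.072 with upper-quartile scaling, -0.057 with the mutant libraries alone, and -0.070 to 0.19 with 1 library left out. miR-317-5p was at -0.0029 with upper-quartile scaling and 0.018 to 0.18 with 1 library left out, and miR-1-5p -0.26 to 1.62. The cause of each was not tested. Arm ratios gave 0 calls under all 11 alternatives. The alternatives for sums over shared seeds were not run. Depth limits the rows under 100 CPM, whose folds rest on few counts in the lower group.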

Other observations

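Of the 125 rows with counts in the mutants that were too scarce to be tested, 30 had counts in mei-p26 alone, 28 in wh7 alone and 67 in both. Some belong to the groups described above and are given as counts without a test. miR-983-3p had 12 and 19 counts in the mei-p26 libraries, against 1 and 0 counts in the wh7 libraries and 1 and 0 in w1118. miR-2498-3p had 7 and 8 counts in the mei-p26 libraries, against 0 and 0 counts in the wh7 libraries and 0 and 0 in w1118. miR-310-5p had 12 and 11 counts in the mei-p26 libraries, against 2 and 4 counts in the wh7 libraries and 1 and 0 in w1118. In all of these, arms of the groups that rose, both mei-p26 libraries held more counts than any other library. miR-309-3p had 0 and 1 counts in the mei-p26 libraries, against 9 and 6 counts in the wh7 libraries and 1 and 1 in w1118. miR-4-3p had 1 and 1 counts in the mei-p26 libraries, against 9 and 6 counts in the wh7 libraries and 1 and 0 in w1118. miR-5-3p had 0 and 0 counts in the mei-p26 libraries, against 10 and 8 counts in the wh7 libraries and 1 and 0 in w1118. These arms of the miR-309 cluster were seen mostly in wh7. The remaining arm of miR-281, miR-281-1-5p, had 0 and 0 counts in the mei-p26 libraries, against 4 and 18 counts in the wh7 libraries and 5 and 1 in w1118. miR-970-5p, from the precursor of miR-970-3p, had 2 and 3 counts in the mei-p26 libraries, against 11 and 9 counts in the wh7 libraries and 1 and 3 in w1118. miR-4966-3p, a neighbour of the miR-972 cluster, had 5 and 3 counts in the mei-p26 libraries, against 0 and 0 counts in the wh7 libraries and 0 and 0 in w1118. miR-980-3p had 0 and 15 counts in the mei-p26 libraries, against 2 and 4 counts in the wh7 libraries and 0 and 1 in w1118, all of its mei-p26 counts being in 1 library.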
